A study of Canis lupus familiaris with 24 samples.

Results

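*Mixl1*, *Eomes* and *Gsc* are 3 transcription factor genes of the mesendoderm, chosen by name from the 26 genes that the RT-qPCR tables cover. All 3 have values in 8 of the 24 samples, namely the undifferentiated controls and the definitive endoderm (DE) cells of day 3. There are 4 samples per group. Each group holds 1 sample from each of 4 canine adipose-derived mesenchymal stem cell (cAD-MSC) lines, each grown from abdominal fat of a different healthy dog. A control and a DE sample with the same number in their titles were taken as the same line, an inference from the numbering. The undifferentiated cAD-MSCs were cultured as adherent cells in DMEM, with fetal bovine serum per the methods of the study. DE cells were the same lines after 3 days of induction with Chir99021 and Activin A. By the methods for the protocol that holds both agents, they grew without serum as clusters, first with Chir99021, BSA and sodium butyrate for a day and then with Activin A, BSA, sodium butyrate and ITS. Chir99021 inhibits the kinase GSK3, and ITS is a supplement of insulin, transferrin and selenium. The agents, the removal of serum and the change to clusters came together, so their parts in any difference cannot be told apart. No sample with only some of these changes is analysed here.

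The mesendoderm is the transient cell population of the primitive streak from which both mesoderm and definitive endoderm arise. It is specified by Wnt and Nodal signaling, for which Chir99021 and Activin A are the usual substitutes in culture. *Eomes* encodes a T-box factor that is required for definitive endoderm in the embryo. *Gsc* (goosecoid) encodes a paired-like homeodomain repressor known from the organizer, and *Mixl1* encodes a paired-like homeodomain factor of the primitive streak. Expression of all 3 is usually brief, and cAD-MSCs, as stromal cells, are not known for it.

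Expression is given here in 2 ways. The threshold cycle (Ct) is the PCR cycle at which fluorescence passes a set level, so an earlier Ct stands for more template. The deposited ratio of a gene to *Gapdh*, the reference gene, was divided by the mean ratio of the 4 undifferentiated samples, which gives the relative mRNA expression with a control mean of 1. A difference of 1 on the log2 scale is a doubling. The primer pairs were not corrected for efficiency or product length, so Ct values were not compared as levels between genes. Since the RNA came from whole cultures, fewer expressing cells and less RNA per cell cannot be told apart.

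The mesendoderm genes did not move together. *Eomes* was upregulated in DE cells, to 2.71 ± 0.688 (SD, n = 4) times the mean of the undifferentiated cells, and to 4.41 times without *Gapdh*. *Gsc* had a mean of 2.49 ± 1.09 and *Mixl1* of 0.434 ± 0.176, and for both genes the groups overlapped. Within the lines and relative to *Gapdh*, *Eomes* and *Gsc* were higher and *Mixl1* was lower in the DE cells of 4 of 4 lines. Without *Gapdh*, *Eomes* and *Gsc* were still higher in 4 of 4 lines, but *Mixl1* was higher in 2 lines and lower in 2.

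**Figure D1:**
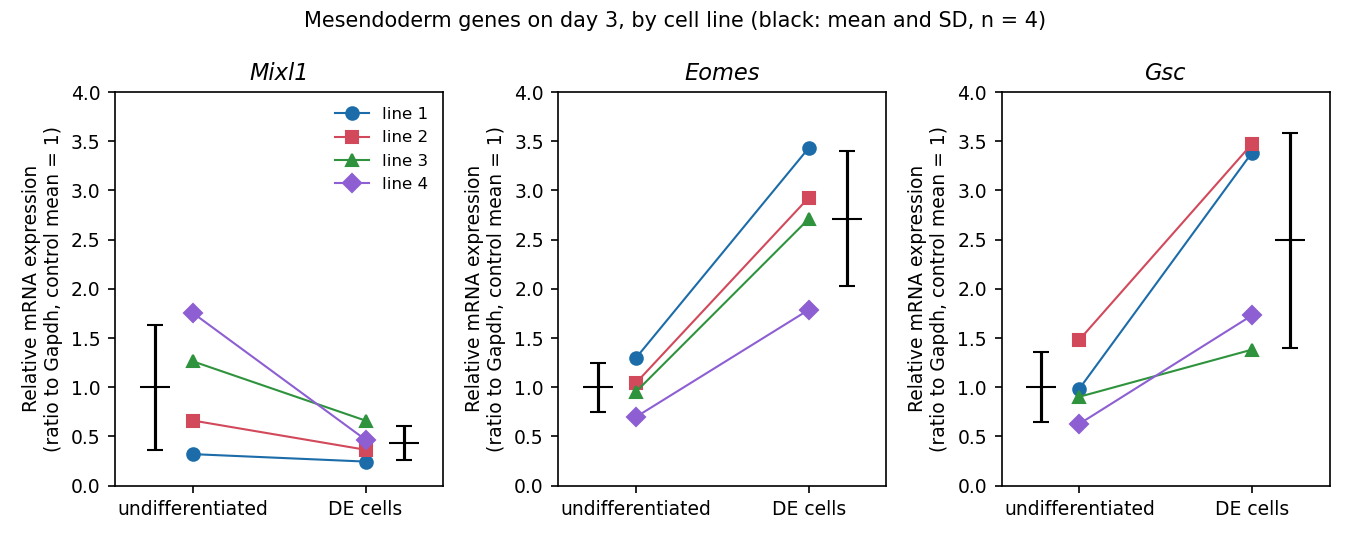
Relative mRNA expression (vertical axis, ratio to *Gapdh* with the control mean set to 1) of *Mixl1*, *Eomes* and *Gsc* in undifferentiated and DE cells of day 3. Each symbol is 1 sample, lines join samples of the same cell line, and black bars give the mean and SD of 4 samples. The *Eomes* samples of the groups are apart, from 0.699 to 1.30 and from 1.79 to 3.43, while *Mixl1* points downward in each line.

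*Eomes* had relative values of 1.30, 1.05, 0.956 and 0.699 in the undifferentiated cells of lines 1 to 4. In DE cells the values were 3.43, 2.93, 2.71 and 1.79 for the same lines. The lowest DE sample lay above the highest control (exact two-sided Mann–Whitney U test, p = 0.0286, the smallest value that 4 against 4 samples can give). After Benjamini-Hochberg adjustment over the 7 genes of day 3 the p-value was 0.05, which is not under the threshold of 0.05. Line 1 was highest and line 4 lowest in both groups, and all 4 lines kept their rank.

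Relative to *Gapdh*, the size of the *Eomes* change was nearly the same in every line. DE cells had 2.64, 2.80, 2.84 and 2.56 times the expression of their own controls in lines 1 to 4. On the log2 scale the change was 1.44 with an SD of 0.0709 between lines, the smallest SD among the 7 genes of day 3. The raw Ct moved from 34.18, 35.22, 35.01 and 35.46 cycles to 32.21, 32.60, 32.83 and 33.69 cycles. The SD of this raw change between lines was 0.364 cycles, and without *Gapdh* the 4 endoderm genes of day 3 had smaller SDs, from 0.0981 to 0.353 cycles. The smallest was that of *Gata4*, whose controls of lines 3 and 4 were at the highest Ct of 40 cycles, so its change is not fully measured there. The *Eomes* signals are late, and 3 of its 4 controls lay past cycle 35, where a Ct is usually less precise. With those 3 values set to 35 cycles, *Eomes* was 2.44 times the control mean, and the groups were still apart.

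In undifferentiated cells of lines 1 to 4, *Gsc* had relative values of 0.986, 1.48, 0.903 and 0.628. The DE cells reached 3.38, 3.47, 1.38 and 1.73. DE cells of lines 1, 2 and 4 were above every control, but the DE value of line 3 lay below the control of line 2, so the groups overlapped (exact two-sided Mann–Whitney U test, p = 0.0571). The change ranged from 1.53 times in line 3 to 3.43 times in line 1, a wider spread than for *Eomes* (SD 0.493 on the log2 scale against 0.0709, a difference that was not tested). A limma model that held a term for the line, fitted over the 7 genes of day 3, gave a log2 difference of 1.27 with a 95% interval from 0.733 to 1.81 (adjusted p = 0.00227). Its variance was pooled over genes that share the *Gapdh* measurement of a sample. The exact sign-flip test over the 4 lines gave p = 0.125 for the same change, the smallest it can give.

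The raw *Gsc* Ct told the groups apart without *Gapdh*. It was 31.28, 31.42, 31.79 and 32.32 cycles in the controls and 28.93, 29.05, 30.43 and 30.43 cycles in the DE cells of lines 1 to 4. Every DE sample had an earlier Ct than every control (exact two-sided Mann–Whitney U test, p = 0.0286), and the template ratio without *Gapdh* was 4.33 times the controls. The overlap of the relative values rested on the DE sample of line 3 and the control of line 2. That control had both the latest *Gapdh* Ct of the 8 samples (22.7 cycles) and the highest *Gsc* ratio among the controls.

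*Mixl1* had relative values of 0.320, 0.662, 1.26 and 1.75 in the undifferentiated cells of lines 1 to 4, a 5.47-fold range. In DE cells the values were 0.245, 0.365, 0.661 and 0.467, a 2.70-fold range. The lowest control, of line 1, lay below 3 of the 4 DE samples, and the groups were not told apart (exact two-sided Mann–Whitney U test, p = 0.2). Lines 3 and 4 had the highest *Mixl1* in both the undifferentiated and the DE cells.

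Against their own controls, DE cells had 0.764, 0.551, 0.523 and 0.266 times the *Mixl1* expression in lines 1 to 4. The log2 difference was -1.02, with a 95% interval from -2.34 to 0.298 in limma without the line (adjusted p = 0.134). With the line as a factor the interval was from -1.71 to -0.340 (adjusted p = 0.0124), while the exact sign-flip test over the 4 lines gave p = 0.125. Line 4, which had the highest control, had the lowest quotient.

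The direction of *Mixl1* depended on the reference gene in 2 lines. Its Ct moved from 28.30 to 28.13 cycles in line 1 and from 27.99 to 27.70 cycles in line 2, which is earlier, not later. In lines 3 and 4 it moved later, from 26.72 to 26.97 and from 26.24 to 27.73 cycles. Without *Gapdh*, therefore, *Mixl1* was higher in 2 lines and lower in 2 lines, and the mean template ratio was 0.706 times the controls. The largest shift was that of line 4. The groups overlapped (exact two-sided Mann–Whitney U test, p = 0.886).

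**Figure D2:**
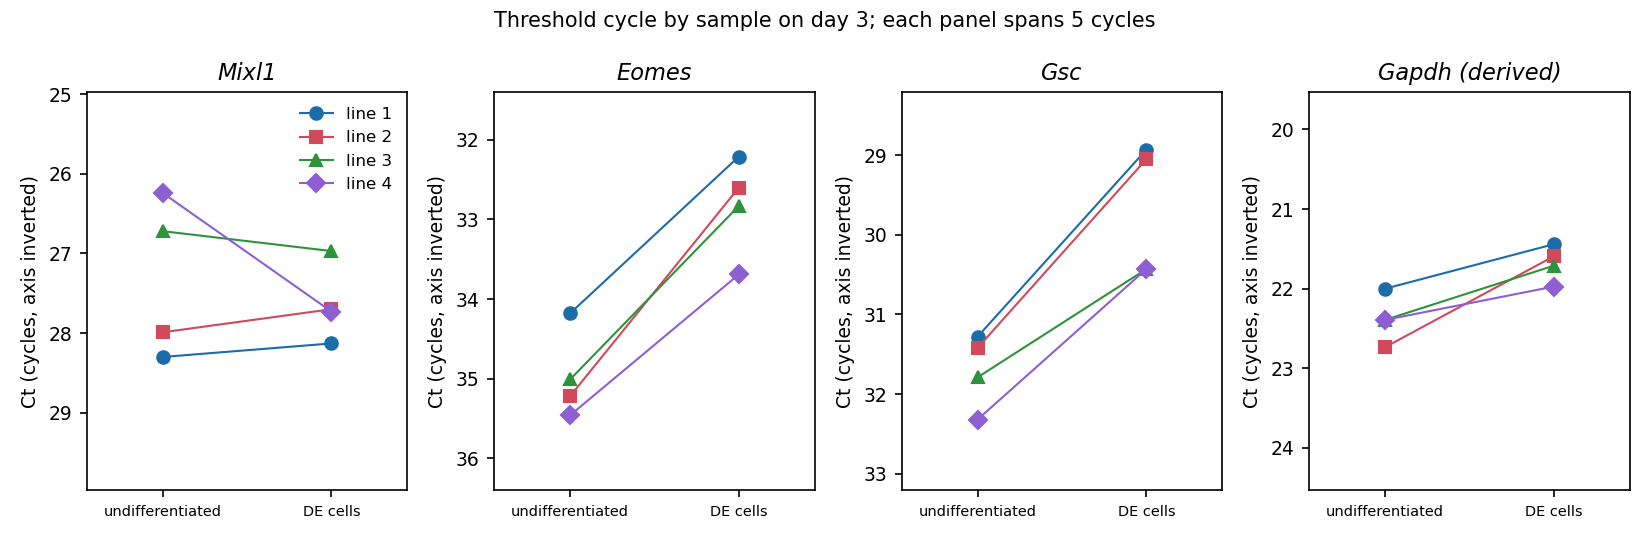
Threshold cycle (vertical axis in cycles, inverted so that more template is up) of *Mixl1*, *Eomes*, *Gsc* and the derived *Gapdh* in undifferentiated and DE cells of day 3, with 1 symbol per sample and lines joining the samples of a cell line. Every panel spans 5 cycles. *Eomes*, *Gsc* and *Gapdh* had an earlier Ct in the DE cells of 4 lines, whereas *Mixl1* moved earlier in lines 1 and 2 and later in lines 3 and 4.

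The *Gapdh* Ct is not listed in the tables but can be worked out from any gene's Ct and ratio. In the undifferentiated cells it averaged 22.4 ± 0.300 cycles (SD, n = 4), and in DE cells 21.7 ± 0.225 cycles (exact two-sided permutation test, p = 0.0286). From control to DE cells it shifted by -0.559, -1.14, -0.681 and -0.419 cycles in lines 1 to 4. This shift lowers the relative expression of every gene by the same factor within a sample. Whether *Gapdh* itself changed or more cDNA was used was not tested. The 7 genes gave *Gapdh* values within 0.01 cycles of each other in 7 of the 8 samples. The exception was the DE sample of line 3, with a range of 0.0716 cycles, in which *Gsc* gave 21.64 cycles against a median of 21.71 cycles.

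Since the same *Gapdh* measurement enters the ratios of a sample, it cancels when 1 mesendoderm gene is divided by another. *Eomes* over *Mixl1* was 2.39, 0.931, 0.446 and 0.235 in the controls of lines 1 to 4, relative to their mean, and 8.26, 4.73, 2.42 and 2.25 in DE cells. It was 3.46 to 9.60 times higher in the DE cells of 4 of 4 lines, although the groups touched through the control of line 1 (exact two-sided Mann–Whitney U test, p = 0.0571, 0.171 after Benjamini-Hochberg adjustment over 3 pairs). With the line as a factor, limma gave a log2 difference of 2.46 with a 95% interval from 1.73 to 3.19 (adjusted p = 8.76e-05). That model was fitted over the 3 quotients, each of which follows from the others, and all 3 intervals had the same width. Its p-value rests on a variance pooled over dependent quotients, not on the spread of this pair alone, and may be too small. *Eomes* over *Mixl1* does not depend on *Gapdh*.

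The quotient of *Gsc* over *Mixl1* was similar in kind. It was 1.93, 1.40, 0.448 and 0.224 in the controls and 8.66, 5.96, 1.31 and 2.32 in DE cells of lines 1 to 4. DE cells had 2.92 to 10.3 times the quotient of their own control in 4 of 4 lines, and the groups overlapped (exact two-sided Mann–Whitney U test, p = 0.114, adjusted p = 0.171). In limma with the line as a factor the log2 difference was 2.29, with a 95% interval from 1.56 to 3.03 (adjusted p = 8.76e-05). The same pooled variance was used, so this p-value may be too small as well.

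*Eomes* and *Gsc* were not shown to change by different factors. The quotient of *Eomes* over *Gsc* was 1.26, 0.672, 1.01 and 1.06 in the controls and 0.967, 0.804, 1.87 and 0.985 in DE cells. It was higher in DE cells of 2 lines and lower in 2 lines (exact two-sided Mann–Whitney U test, p = 0.886). The 95% interval of the log2 difference was from -0.569 to 0.899 with the line as a factor in limma, again with the variance pooled over the dependent quotients.

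**Figure D3:**
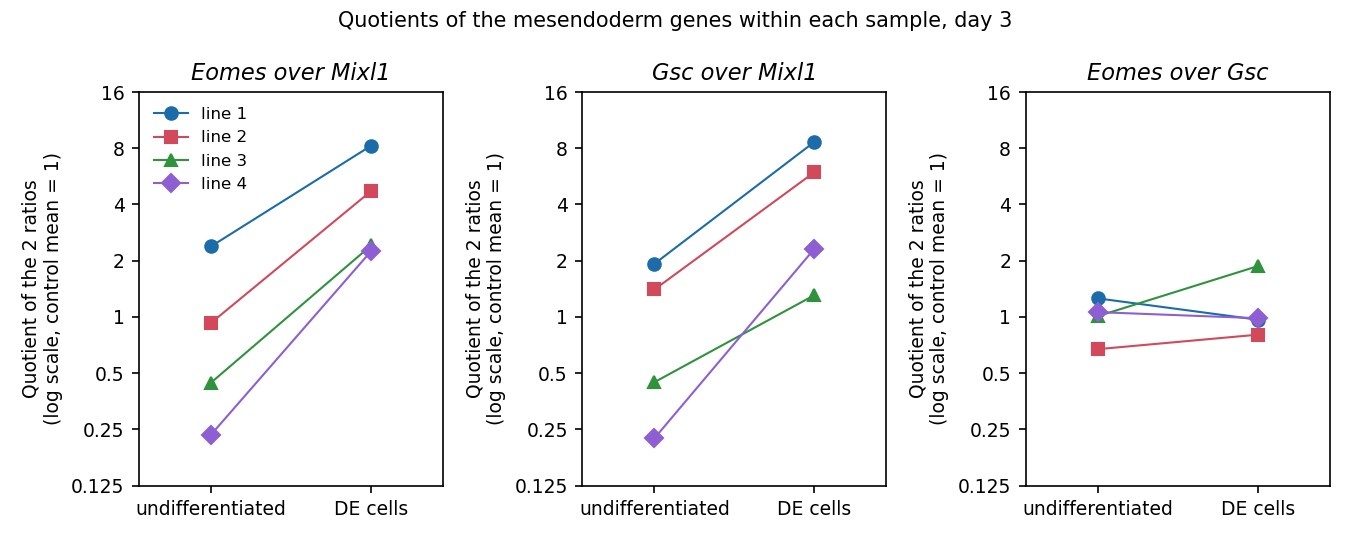
Quotients of the ratios of 2 mesendoderm genes in the same sample (vertical axis, log scale, control mean set to 1) for undifferentiated and DE cells of day 3. Symbols are samples, and lines join those of 1 cell line. *Eomes* over *Mixl1* and *Gsc* over *Mixl1* went up in 4 lines, and *Eomes* over *Gsc* went up in 2 lines and down in 2.

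The share of the variation that lay between the cell lines was largest for *Mixl1* among the 3 genes. The sum of squares of the log2 ratios over the 8 samples was divided into parts for the group, the line and the rest, as a description without a test. For *Eomes*, 82.2% belonged to the difference between undifferentiated and DE cells and 17.7% to the line. For *Gsc* the shares were 60.1% and 33.2%. For *Mixl1*, 31.2% belonged to the group and 59.7% to the line, and 9.11% was left over, the highest rest of the 7 genes. Among the other genes *Gata4*, an endoderm GATA factor, was the only one with a lower share for the group than *Mixl1* (22.7%), and its controls of lines 3 and 4 were at the highest Ct of 40 cycles.

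**Figure D4:**
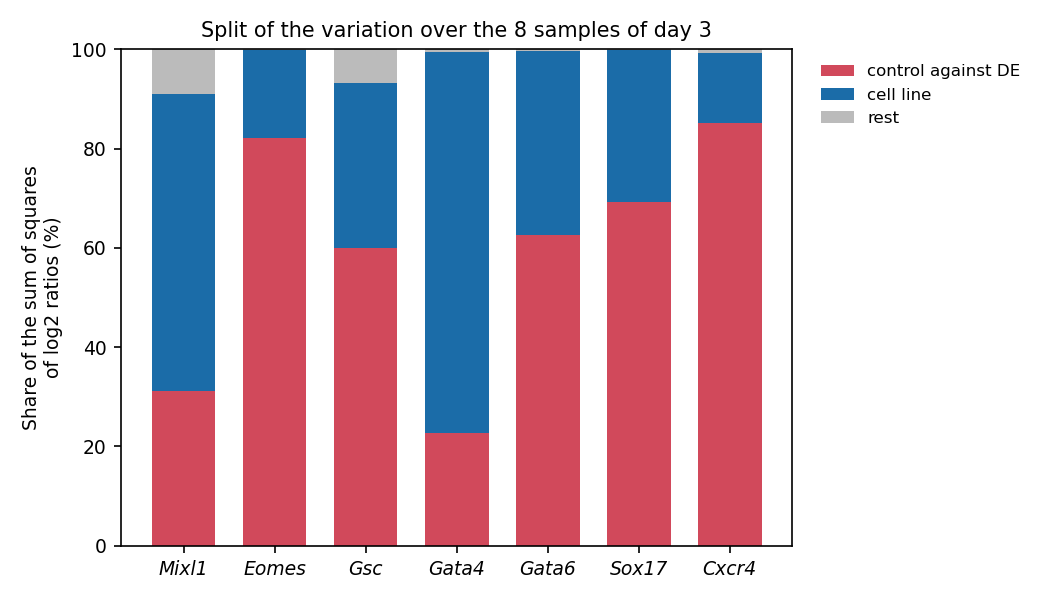
Shares (vertical axis, %) of the sum of squares of the log2 ratios to *Gapdh* over the 8 samples of day 3, for *Mixl1*, *Eomes*, *Gsc* and the other 4 genes. Red is the difference between control and DE cells, blue the cell line and grey the rest. The share of the group was 82.2% for *Eomes*, 60.1% for *Gsc* and 31.2% for *Mixl1*.

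The order of the lines differed between the genes. In undifferentiated cells, *Mixl1* was lowest in line 1 and highest in line 4, while *Eomes* was highest in line 1 and lowest in line 4. *Gsc* was highest in line 2 and lowest in line 4. As a result, the Ct of *Eomes* came 5.88 cycles after that of *Mixl1* in the control of line 1 and 9.22 cycles after it in the control of line 4. In DE cells these gaps were 4.08 and 5.96 cycles. The control Ct gap between *Eomes* and *Gsc* was steadier, at 3.27 ± 0.382 cycles (SD, n = 4).

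Over the 8 samples, the expression pattern most like that of *Eomes* was that of *Gsc*, and the reverse, with a root mean square difference of 0.418 on the log2 scale, each gene being set against the mean of its control logs. This measure counts the size of a change as well as its direction. By it the gene farthest from *Eomes* was *Cxcr4* (2.06), although *Cxcr4* was also higher in 4 of 4 lines. *Mixl1*, which was lower, was about as far from *Eomes* (2.02). *Cxcr4* was also the farthest from *Gsc* (2.11) and from *Mixl1* (3.98). For *Mixl1* the nearest gene was *Gata6*, at 1.92, about as far away as *Gsc* at 2.00 and *Eomes* at 2.02. The 8 samples share 4 cell lines, and the *Gapdh* measurement of a sample cancels in these differences.

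The other genes of day 3 are markers of definitive endoderm, in which *Sox17*, *Gata4* and *Gata6* encode transcription factors and *Cxcr4* a chemokine receptor. Of the 3 mesendoderm genes, 1 was apart between the groups, and of the other 4 genes 3 were (*Gata6*, *Sox17* and *Cxcr4*), all higher in DE cells. Over the 7 genes together this was 57.1%. By the direction within lines relative to *Gapdh*, 3 of 3 mesendoderm genes and 4 of 4 others changed the same way in all lines. This is 100% of the genes measured, so this count is at the background. *Mixl1* was the only one of the 7 that was lower, and without *Gapdh* it was lower in only 2 lines. In limma without the line, 2 of the 3 genes (*Eomes*, adjusted p = 0.0139, and *Gsc*, adjusted p = 0.0317) and 71.4% of the 7 had an adjusted p-value under 0.05, and with the line as a factor 3 of 3 and 100% did. The log2 changes were 1.66 for *Gata6*, 1.76 for *Sox17*, 2.01 for *Gata4* and 4.16 for *Cxcr4*, so *Eomes* at 1.44 and *Gsc* at 1.27 had the smallest changes among the genes that were higher.

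**Figure D5:**
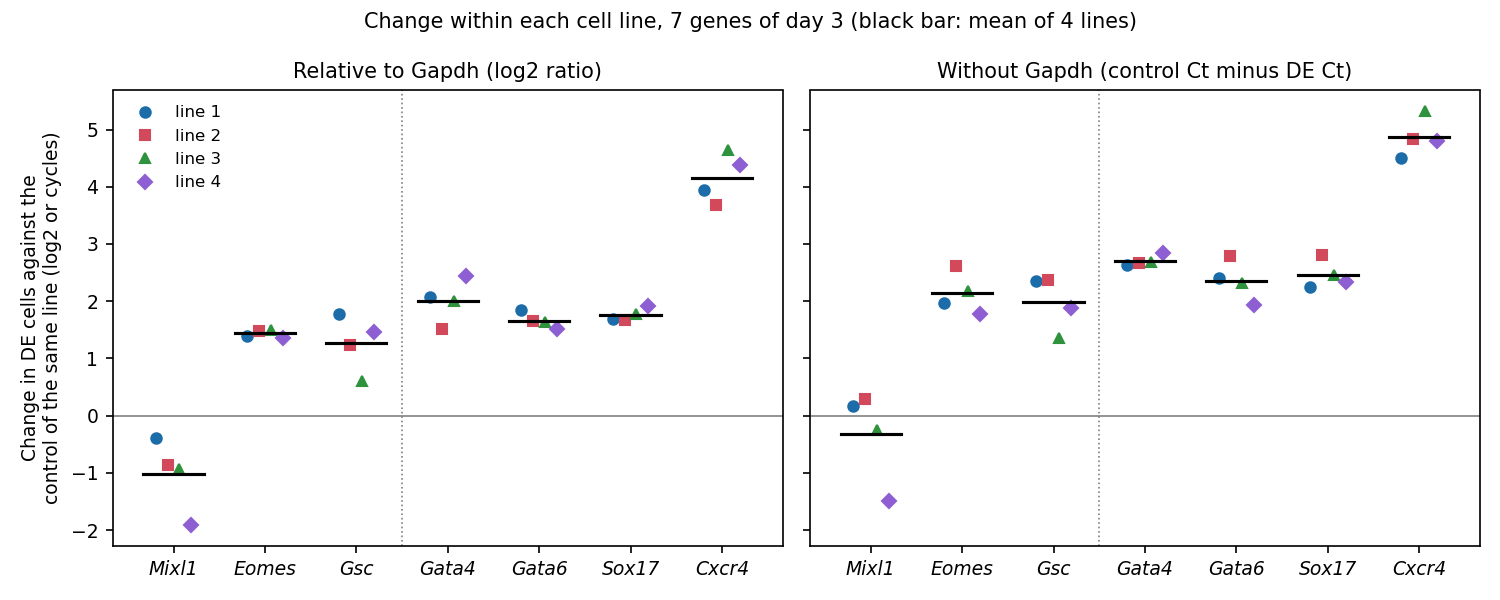
Change of the 7 genes of day 3 in DE cells against the undifferentiated control of the same line, relative to *Gapdh* (left, log2 ratio) and without *Gapdh* (right, control Ct minus DE Ct in cycles). Symbols are the 4 lines and black bars their mean, and the dotted line parts the mesendoderm genes from the definitive endoderm genes. *Mixl1* lies below 0 in 4 lines on the left and in 2 lines on the right, while the 4 *Eomes* symbols on the left have an SD of 0.0709.

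The labelled identity of the cells could be checked only by the genes listed. *Sox17*, which marks definitive endoderm, was 3.45 ± 1.67 (SD, n = 4) times the control mean in DE cells, with a raw Ct of 30.8 ± 0.573 cycles. It was also detected in the undifferentiated cells, at 33.2 ± 0.655 cycles. *Gata6* and *Cxcr4* were higher in DE cells without overlap as well, but the groups of *Gata4* overlapped (exact two-sided Mann–Whitney U test, p = 0.314). The 7 genes of day 3 include no marker of mesenchymal stem cells or of another cell type, so how many cells of a sample had left the undifferentiated state is not known from them.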

How the data were processed

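RNA was made into cDNA and amplified with a green DNA dye. The authors deposited Ct values, in cycles and not normalized, and the linear ratio of each gene to *Gapdh* (2 to the power of minus ΔCt). Replicate wells, amplification efficiencies and threshold settings are not given in the sources used here. Depth does not apply to Ct values, and the precision is limited by the 4 lines. The 12 deposited columns of fold changes hold the authors' own comparisons and were not used.

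Samples were assigned to groups and lines from their titles. The members, gene lists, tests and alternatives were chosen with earlier results of these data known. The named genes are the 3 members, the other 4 genes measured on day 3, and for each member the nearest and farthest pattern. Relative expression was calculated from the deposited ratio, and groups were compared with the Mann–Whitney U test named in the study, as an exact two-sided enumeration. A p-value under 0.05 requires groups that do not overlap. The reference table of dog genes (assembly UU_Cfam_GSD_1.0) was matched by symbol for 3 of 3 members.

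The titles number the samples of a group from 1 to 4 and do not name the dog. Samples with the same number were taken as the same line, so all within-line results rest on this numbering. Deviations of DE and control samples of the same line from their group means had Pearson's r from 0.937 to 0.986 across the 7 genes, which are not independent. In every gene lines 1 and 2 ranked next to each other, as did lines 3 and 4. A high r could therefore arise between different lines too, for which r was not calculated, so it does not check the pairing. Alternatives were within-line differences, limma with and without the line, an exact permutation test, Benjamini-Hochberg adjustment, raw Ct, a common *Gapdh* Ct, geometric means, an amplification factor of 1.9, a latest Ct of 35, and subsets of the lines. Python 3.11.15, numpy 2.4.6, scipy 1.17.1, matplotlib 3.10.9, R 4.3.3 and limma 3.58.1 were used. The tests were tried first on 1000 simulated independent genes, of which 200 changed. That setting differs from the 7 genes and the dependent quotients here, so the trial does not bear on their limma p-values.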

Additional observations from a re-analysis of the deposited data

Results flagged for a closer look

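In DE cells the quotient of *Eomes* over *Gsc* was 1.87 in line 3 and 0.804 to 0.985 in the other lines, and the gap to the nearest sample was 0.830 of the whole range, just past Dixon's 95% critical value for 4 samples. This was 1 of 20 groups of 4 values examined, and about 1 in 20 passes that value by chance. The *Gsc* value of that sample is also the one whose *Gapdh* Ct departed from that of the other genes, by less than 0.1 cycles. With the quotient taken from the raw Ct, a setting chosen after seeing the data, the gap was 0.817 of the range, below the critical value, and the mean quotient was 1.13 instead of 1.16 times the controls. Without line 3 the mean quotient was 0.921.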

How the results depend on the processing

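The count of mesendoderm genes past the threshold, at an unadjusted p under 0.05, was 1 of 3, against 4 of all 7 genes of day 3. It was 3 in limma with the line as a replicate block (7 of all 7) and 2 in limma without the line (5 of all 7). With raw Ct it was 2, and *Gata6*, *Sox17* and *Cxcr4* passed too, but not *Gata4*. After Benjamini-Hochberg adjustment it was 0, and none of the 7 genes passed. For *Eomes*, at 2.71 times the controls, the adjusted p was 0.05 (exact Mann–Whitney U test). Relative to *Gapdh*, all 3 genes changed one way in 4 lines. The exact sign-flip test over 4 pairs still gave p = 0.125 for each, the smallest it can give, so none passed by it. With the replicate block the paired change was 0.492 for *Mixl1*, 2.41 for *Gsc*, 5.50 for *Eomes* over *Mixl1* and 4.90 for *Gsc* over *Mixl1*, and these 4 passed in limma but not in the sign-flip test (exact p = 0.125 for each). In limma without the line *Gsc* and both quotients passed and *Mixl1* did not. For the quotients, limma was fitted over the 3 pairs, which depend on each other, so their p-values may be too small. With raw Ct *Gsc* passed at 4.33. *Mixl1* stayed lower on average with raw Ct, at 0.706, but it was higher in 2 lines and lower in 2.

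Lines 1 and 2 alone gave 2.78 for *Gsc*, 3.91 for *Eomes* over *Mixl1*, 4.39 for *Gsc* over *Mixl1* and 0.917, the opposite direction, for *Eomes* over *Gsc*. Lines 3 and 4 alone gave 0.374 for *Mixl1*, 2.03 for *Gsc*, 6.86 and 5.40 for the quotients over *Mixl1*. With 2 against 2 samples the smallest exact p is 0.333, and with 3 against 3 it is 0.1, so subsets were judged by overlap alone and none passed a test. The groups of 2 mesendoderm genes were apart in lines 1 and 2, and of 3 in lines 3 and 4. *Gata4*, *Gata6*, *Sox17* and *Cxcr4* were apart in both of these subsets, so these counts are not particular to the mesendoderm genes. *Gata6*, *Sox17* and *Cxcr4* were also apart in every other subset. Leaving out each line in turn gave 0.393 to 0.566 for *Mixl1* (apart at 0.406 without line 1), 2.68 to 2.75 for *Eomes*, 2.19 to 2.77 for *Gsc* (apart at 2.58 without line 2 and 2.77 without line 3), 4.09 to 5.83 for *Eomes* over *Mixl1* (apart at 5.83 without line 1 and 4.09 without line 4), 4.22 to 4.77 for *Gsc* over *Mixl1* (apart at 4.77 without line 3), 0.921 to 1.33 for *Eomes* over *Gsc* (0.921 without line 3), 1 to 2 genes with groups apart, and from -0.794 to -0.553 cycles for *Gapdh*. The cause of these differences was not tested. No other alternative changed a call or a direction.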

Other observations

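The Ct of *Gsc* is 30.43 cycles in the DE cells of both line 3 and line 4, and that of *Cxcr4* is 27.31 cycles in the same pair of samples. The other 5 genes differ between these samples. The highest Ct in the tables is 40 cycles, while the labels give 45 cycles of amplification, and the latest value among the mesendoderm genes was 35.46 cycles, for *Eomes* in the control of line 4.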
